A study of Sus scrofa with 6 samples.

Results

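The genes described here control the sterol regulatory element-binding proteins (SREBPs) or encode lipoprotein receptors and a sterol carrier. They are SREBF1, SREBF2, SCAP, INSIG1, INSIG2, LRP1, VLDLR and STARD4, and rows were taken by gene name from a table of 30477 genes. Of the 8 genes, 7 had a row under their name, and LRP1 was not analysed here. A mean of at least 0.1 FPKM over the 6 pigs was required for testing, and 6 of the 7 genes passed it. STARD4 did not.

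Abdominal aortas came from male Wuzhishan miniature pigs of 2 groups, with 3 pigs and 3 RNA libraries in each. The normal chow (NC) group ate a regular diet for 6 months, and the HFCF group ate chow mixed with shortening, egg yolk powder, cholesterol and fructose for the same 6 months. The sample labels give an age of 3 to 4 months, while the methods give an older age at purchase. RNA was taken from whole vessel tissue, so every value is an average over all cell types of the wall.

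SREBPs are transcription factors that are made as membrane proteins of the endoplasmic reticulum. SCAP escorts them to the Golgi apparatus, where proteases release the active part, and the INSIG proteins hold SCAP back when sterols are plentiful. SREBF2 acts mainly on genes of cholesterol synthesis and uptake and SREBF1 mainly on genes of fatty acid synthesis, and the genes of INSIG1, SREBF2 and STARD4 are themselves known targets of SREBPs. VLDLR and LRP1 belong to the LDL receptor family and take up lipoproteins that carry apolipoprotein E.

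In the HFCF group SREBF2 mRNA was 4.59-fold lower than in the NC group, and both INSIG genes were higher, INSIG1 2.94-fold and INSIG2 2.74-fold. SREBF1 was 1.56-fold lower. The level of the escort SCAP differed by less than the spread between pigs, and VLDLR was lower in every HFCF pig without passing the test. Values are FPKM, fragments counted relative to the exon length of the gene and to the mapped reads of the library. They were compared as log2(FPKM + 0.1) with limma, a linear model that shares the spread across genes, with Benjamini-Hochberg adjustment over 15384 genes, so that p-values measure the spread between the 3 pigs of a group. By an adjusted p under 0.05, 4 of the 6 tested members were called, against 28.9% of all tested genes. Of these, 2 were called higher, against 22.8% of all tested genes, and 2 were called lower, against 6.16%. The groups did not overlap in 5 of the 6 tested members, against 48.2% of all tested genes. The thresholds of the study, a ratio of means above 2 or below 0.5 with an unadjusted p under 0.05, were passed by SREBF2, INSIG1 and INSIG2, 3 of the 6, against 25.5% of all tested genes. The median log2 fold change was -0.33 for the 6 members and 0.32 for all tested genes. Members were chosen with earlier results of these data known, so their counts beside these shares are descriptive only.

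**Figure D1:**
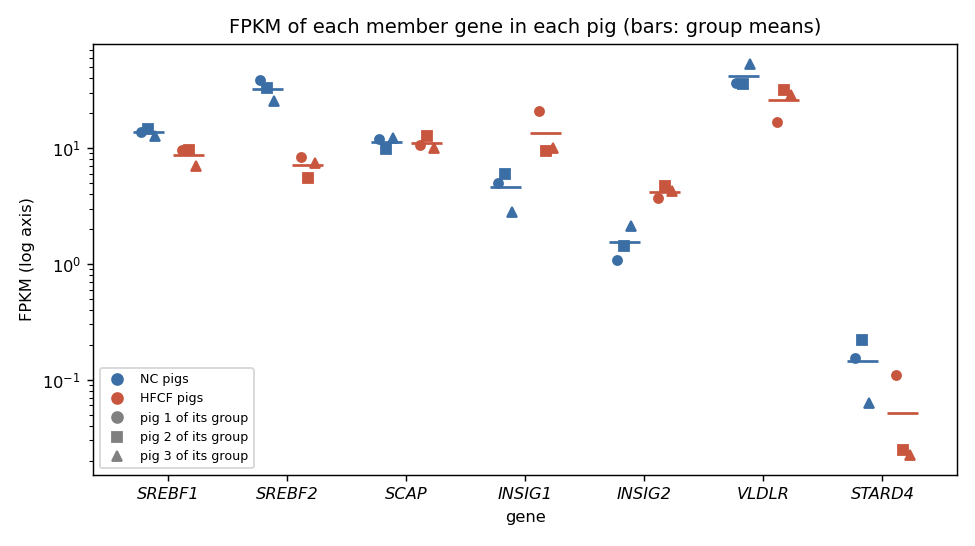
FPKM of the 7 member genes on a log axis in the 3 NC pigs (blue) and the 3 HFCF pigs (red), with marker shapes for the pig number and horizontal bars for group means. SREBF2 falls from 25.7 to 38.6 FPKM in the NC pigs to 5.46 to 8.3 FPKM in the HFCF pigs, while for INSIG1 and INSIG2 the lowest HFCF pig lies above the highest NC pig.

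Facts of the whole table bear on these values. Sequencing depth was estimated from the most common ratio between the first NC pig and each other pig, over values under 0.3 FPKM in genes with 1 transcript. The estimates were 1 to 1.37 times the depth of the first NC pig, with no read totals used here. They rested on 39 to 56 genes in HFCF pigs and on 131 and 115 genes in the other NC pigs. The FPKM values summed to between 272207 and 287141 in NC pigs and between 330222 and 338690 in HFCF pigs. Of the called genes, 78.7% were higher in the HFCF group as deposited. That share was 50.7% with median-ratio scaling, 49.5% when libraries were quantile normalized and 58.2% when they were rescaled to TPM, and the median gene then had a log2 fold change of -0.01, -0.07 and 0.07. In the HFCF pigs all 9 tested macrophage markers were called higher and their summed level was 697 to 1800 FPKM, against 47.2 to 58.8 FPKM in NC pigs, while LYZ was listed at 0 in every library. Contractile smooth muscle markers were called lower in 6 of 8 cases, with a sum of 8040 to 12900 FPKM against 16000 to 22800 FPKM. Endothelial markers were called in 0 of 8 cases in limma, and 2 of them were higher at an unadjusted p under 0.05. Adipocyte markers summed to 74.8 to 102 FPKM in HFCF pigs and 50.1 to 301 FPKM in NC pigs. Of 6 tested, 1 was called, PLIN4, which was lower. Their median log2 fold change was -1.24, from -2.94 for ADIPOQ to -0.17 for FABP4, which had the highest level in each pig. ADIPOQ had 39.1, 59.9 and 1.22 FPKM in NC pigs and 4.08, 0.301 and 4.04 FPKM in HFCF pigs. T cell markers summed to 3.15 to 12.3 FPKM in HFCF pigs and 1.91 to 2.06 FPKM in NC pigs without overlap, with a median log2 fold change of 1.79, and 1 of 6 was called higher and 4 of 6 were higher at an unadjusted p under 0.05. The part of these cell type markers in the results on the members was not tested, and in bulk tissue fewer cells of a type and less RNA per cell cannot be told apart.

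SREBF2 (ENSSSCG00000026092) encodes the SREBP of cholesterol synthesis and uptake. Its level was 38.6, 33.2 and 25.7 FPKM in the 3 NC pigs and 8.3, 5.46 and 7.48 FPKM in the 3 HFCF pigs. The groups were far apart, with the lowest NC pig at 25.7 FPKM and the highest HFCF pig at 8.3 FPKM, and the mean fell from 32.5 ± 6.48 to 7.08 ± 1.46 FPKM (SD, n = 3 each). In limma this was -2.18 ± 0.22 on the log2 scale (± standard error, here and for the other members) with an adjusted p of 0.00151, and only 0.787% of all tested genes had a lower value. Relative to the median of all genes it was -2.51. SREBF2 passed the test in all 15 alternatives, with a log2 fold change between -2.54 and -2.01 and an adjusted p between 0.0013 and 0.011. Contractile smooth muscle markers had log2 fold changes between -1.48 (DES, an intermediate filament protein) and -0.6 (TAGLN, an actin-binding protein), and their part in the level of SREBF2 was not tested.

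SREBF1 (ENSSSCG00000033626), the SREBP gene of fatty acid synthesis, had 13.8, 14.5 and 12.6 FPKM in NC pigs and 9.54, 9.69 and 7.06 FPKM in HFCF pigs. All HFCF pigs were below all NC pigs, but by a smaller margin than for SREBF2. The means were 13.6 ± 0.957 and 8.77 ± 1.48 FPKM (SD, n = 3 each). The log2 difference was -0.64 ± 0.18, with an adjusted p of 0.033 by limma. The direction held in all 15 alternatives, with a log2 fold change between -1.0 and -0.5, and the call held in 8, among them the 3 scalings. It was lost without the first, the second or the third NC pig (adjusted p = 0.0953, 0.0989 and 0.0554 in limma) and without the second or the third HFCF pig (0.0564 and 0.0754), and it was also lost without a variance trend (0.0579) and with a replicate block (0.0607). In these 7 fits the log2 fold change stayed between -0.72 and -0.5. The table lists 1 transcript for this gene and gives a single level, so isoforms were not distinguished.

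Within each pig the ratio of the 2 SREBP genes does not depend on how a library is scaled. SREBF1 stood at 0.357, 0.436 and 0.49 times the FPKM of SREBF2 in NC pigs and at 1.15, 1.77 and 0.944 times in HFCF pigs. SREBF2 was thus the more abundant mRNA per length in every NC pig, and in the HFCF group it remained so in the third pig. The mean log2 ratio differed by 1.54, a 2.91-fold shift, with no overlap between groups. The exact two-sided permutation test gave p = 0.1, the smallest that 3 pigs against 3 allow, and 0.15 after adjustment over the 3 ratios tested. A planned ratio of VLDLR to LRP1 could not be formed.

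SCAP (ENSSSCG00000026281) carries SREBPs from the endoplasmic reticulum to the Golgi apparatus. It had 11.9, 9.83 and 12.3 FPKM in NC pigs and 10.7, 12.8 and 9.98 FPKM in HFCF pigs. These ranges overlapped almost fully, and the log2 difference was -0.02 ± 0.17, with an adjusted p of 0.937 by limma. It was not called in any of the 15 alternatives, where the log2 fold change ran from -0.37 to 0.06, with -0.37, -0.26 and -0.28 under median-ratio scaling, quantile normalization and rescaling to TPM. Since all genes had a median of 0.32, SCAP lay -0.34 from the median gene.

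INSIG1 (ENSSSCG00000016420) anchors SCAP in the endoplasmic reticulum and also helps to degrade HMG-CoA reductase. It had 4.97, 5.97 and 2.82 FPKM in NC pigs and 21, 9.43 and 10 FPKM in HFCF pigs. The first HFCF pig was the highest by a wide margin, and no HFCF pig fell within the NC range. Group means were 4.59 ± 1.61 and 13.5 ± 6.48 FPKM (SD, n = 3 each). INSIG1 rose by 1.5 ± 0.39 on the log2 scale, with an adjusted p of 0.0284 by limma. The direction held in all 15 alternatives, between 1.13 and 1.72, and the call in 9 of them. It was lost without the first HFCF pig (1.13, adjusted p = 0.0532), the first NC pig (1.59, adjusted p = 0.0754) or the third NC pig (1.19, adjusted p = 0.07), and also with median-ratio scaling (0.0676), quantile normalization (0.0698) and rescaling to TPM (0.0534), all from limma. The first HFCF pig also had the highest sum of macrophage markers, 1800 FPKM against 790 and 697 FPKM in the others, and the part of these cells in its INSIG1 level was not tested.

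INSIG2 (ENSSSCG00000036229), the paralogue that also retains SCAP, had 1.08, 1.43 and 2.11 FPKM in NC pigs and 3.73, 4.69 and 4.22 FPKM in HFCF pigs. The HFCF pigs lay close together and above every NC pig. Group means were 1.54 ± 0.524 and 4.21 ± 0.481 FPKM (SD, n = 3 each). INSIG2 rose by 1.44 ± 0.27 on the log2 scale, with an adjusted p of 0.0104 by limma. The call held in 14 of 15 alternatives and missed the threshold with quantile normalization, where the log2 fold change was 0.89 and the adjusted p 0.0513. At 1.12 above the median of all genes, the shift of INSIG2 was close to the 1.18 of INSIG1.

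The ratio of INSIG1 to INSIG2 was 4.59, 4.18 and 1.34 in NC pigs and 5.62, 2.01 and 2.38 in HFCF pigs. The groups overlapped, and the mean log2 ratio differed by 0.06 (exact permutation p = 1, two-sided). The sign of this difference turned without the third NC pig (-0.48) and without the first HFCF pig (-0.39), so these 3 pigs against 3 gave no direction. INSIG1 stood at 0.419, 0.607 and 0.23 times the FPKM of SCAP in the NC pigs and at 1.96, 0.734 and 1.01 times in the HFCF pigs. Every HFCF pig had a higher ratio than any NC pig, and the mean log2 ratio was 1.52 higher (exact permutation p = 0.1, two-sided, 0.15 after adjustment over the 3 ratios). That difference was 1.13 without the first HFCF pig and 1.15 without the third NC pig.

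A pair of further ratios was chosen after the values had been seen and is given with no test. INSIG1 and INSIG2 together reached 0.51, 0.752 and 0.403 times the FPKM of SCAP in the NC pigs and 2.31, 1.1 and 1.43 times in the HFCF pigs. SREBF2 stood at 3.25, 3.38 and 2.1 times SCAP in the NC pigs and at 0.777, 0.425 and 0.75 times in the HFCF pigs. Per length, the summed mRNA of the 2 INSIG genes was thus below that of SCAP in each NC pig and above it in each HFCF pig. For SREBF2 the order was the opposite. Taken alone, INSIG2 stayed below SCAP in each HFCF pig, and INSIG1 was below it in the second HFCF pig (9.43 against 12.8 FPKM).

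**Figure D2:**
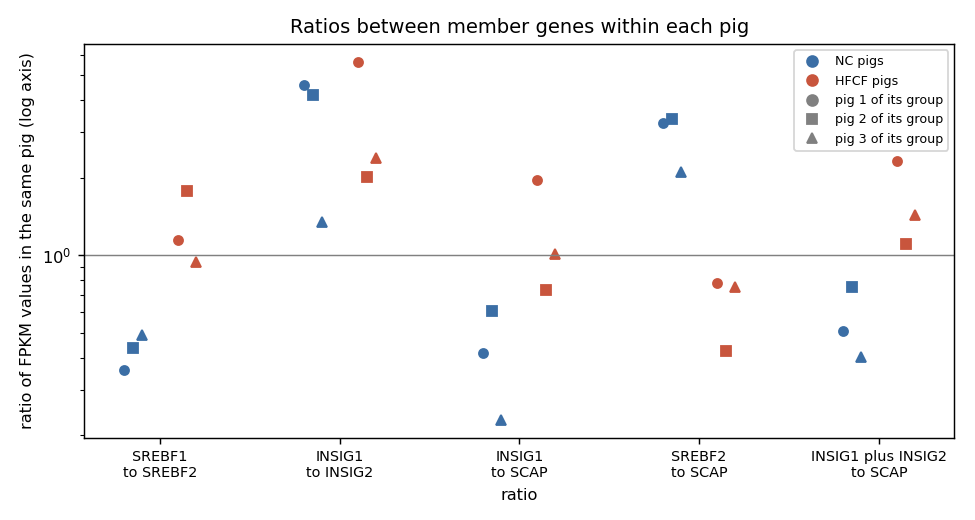
Ratios of FPKM values between member genes within the same pig, on a log axis, for 3 NC pigs (blue) and 3 HFCF pigs (red), with a line at equal levels. SREBF1 to SREBF2 and both INSIG to SCAP ratios are higher in every HFCF pig, SREBF2 to SCAP is lower in every HFCF pig, and INSIG1 to INSIG2 overlaps between groups.

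VLDLR (ENSSSCG00000005229) binds triglyceride-rich lipoproteins and also serves as a receptor for reelin. By group mean it had the highest level per length of the 7 members with a row in both groups, although SREBF2 was higher in the first NC pig and INSIG1 in the first HFCF pig. Its values were 36.1, 35.8 and 53.6 FPKM in NC pigs and 16.9, 31.7 and 28.7 FPKM in HFCF pigs. No HFCF pig reached the NC range, yet the spread within groups was wide. The means were 41.8 ± 10.2 and 25.8 ± 7.8 FPKM (SD, n = 3 each), and the log2 difference of -0.72 ± 0.28 did not pass the test (adjusted p = 0.0946, limma). Its direction was the same in all 15 alternatives, between -1.08 and -0.44, and 1 of them called it, median-ratio scaling (-1.08, adjusted p = 0.0321). Without the first HFCF pig, the lowest, the log2 fold change was -0.44, and without the third NC pig, the highest, it was -0.53.

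STARD4 (ENSSSCG00000031518) moves cholesterol through the cytosol between membranes. Its level was very low, with 0.153, 0.22 and 0.0635 FPKM in NC pigs and 0.109, 0.0245 and 0.0223 FPKM in HFCF pigs. The first HFCF pig lay within the NC range. The mean over 6 pigs, 0.0987 FPKM, was just under the minimum of 0.1 FPKM, so STARD4 has no adjusted p in the fit as planned. Its log2(FPKM + 0.1) was 0.69 lower in HFCF pigs on average, and an exact two-sided permutation test gave p = 0.2. When no minimum was set, the adjusted p was 0.233 in limma. Rescaling to TPM moved the log2 difference to -1.31 (adjusted p = 0.184, limma). There the added 0.1 and the minimum of 0.1 were kept on the TPM scale, where both are smaller relative to each value. Over the 6 alternatives that tested STARD4 the difference lay between -1.31 and -0.55, with an adjusted p of 0.184 to 0.473 in limma. A difference was not detectable at this level.

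**Figure D3:**
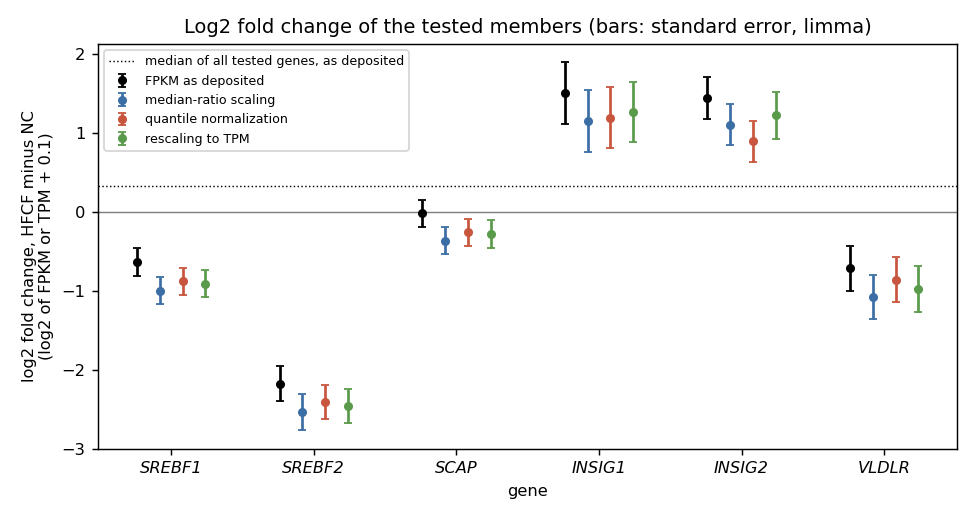
Log2 fold change of the 6 tested members, HFCF minus NC, with bars for the standard error in limma, for FPKM as deposited and under 3 other scalings. SREBF2 stays between -2.54 and -2.18 and the INSIG genes stay above 0, while SCAP moves from -0.02 to -0.37 and all scalings shift the genes downwards.

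The order of the levels changed between groups. In the NC group it ran VLDLR, SREBF2, SREBF1, SCAP, INSIG1, INSIG2 and STARD4, and only VLDLR and SREBF2 overlapped with each other among neighbours. In the HFCF group it ran VLDLR, INSIG1, SCAP, SREBF1, SREBF2, INSIG2 and STARD4. There, VLDLR overlapped with INSIG1, INSIG1 with SCAP and SREBF1 with SREBF2. By mean FPKM, SREBF2 lay above 92.1% of all tested genes in the NC group and above 64.9% in the HFCF group, and INSIG1 above 61.2% and 78.9%.

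Genes with the most similar course over the 6 pigs were sought among 9584 other genes with a symbol and a mean of at least 1 FPKM. Likeness was the root mean square difference between log2 values, each centred on the gene's own mean. For SREBF2 the nearest were RCAN2 (0.178) and PARM1 (0.21), where the median over all these genes was 1.31. For SREBF1 they were DIAPH1 (0.0616) and METTL16 (0.0784), and for SCAP they were MAEA (0.0199) and SLC25A12 (0.0476). For INSIG1 they were PRRG2 (0.0647) and BIRC5 (0.132), and for INSIG2 they were EXOSC8 (0.0817) and TBC1D8B (0.0899). NPR1 (0.0827) and PLXDC1 (0.0983) followed VLDLR most closely. No member was among the 2 nearest genes of another member. With 9584 genes to choose from and 6 pigs, this does not show whether the members vary together.

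Lists of pathway genes put the members beside their partners. Over all tested genes, 22.8% were called higher and 6.16% lower as planned, the latter being 948 of 15384. More genes were called lower under the scalings. These were 1982 of 15360 with median-ratio scaling, 1782 of 15384 with quantile normalization and 1539 of 17531 with rescaling to TPM. The list counts below are to be read beside these. Of 13 tested genes for SREBP cleavage and transport from the endoplasmic reticulum, 2 were called higher and 2 lower, with a median log2 fold change of -0.05 against 0.32 for all tested genes. At an unadjusted p under 0.05, 4 were higher and 2 lower. The even split of the calls did not hold under the scalings, where 1 was called higher and 4 lower with median-ratio scaling, 1 and 3 with quantile normalization, and 1 and 2 with rescaling to TPM. SEC23A and SEC24B, coat proteins of the vesicles that carry SCAP, rose by log2 fold changes of 1.06 and 0.75 (adjusted p = 0.0118 and 0.0278, limma). The adjusted p of SEC24B lay between 0.0221 and 0.161 over 15 alternatives and passed in 6. SEC31A of the outer coat fell by 0.7 on the log2 scale (adjusted p = 0.0208, limma; 0.00748 to 0.07 over the alternatives) and passed in 11. MBTPS1, the site-1 protease that makes the initial cut in SREBPs, was named after its values had been seen. It had 48.4, 45.4 and 46.5 FPKM in NC pigs and 28.9, 33.3 and 32.7 FPKM in HFCF pigs, without overlap, and fell by 0.56 on the log2 scale (adjusted p = 0.0177, limma; 0.00524 to 0.0667 over the alternatives) and passed in 13. Among 14 genes for the degradation of INSIG proteins, HMG-CoA reductase or SREBPs, 0 were called higher and 2 lower in limma, and 0 were higher and 4 lower at an unadjusted p under 0.05. Median-ratio scaling and quantile normalization each gave 5 called lower and rescaling to TPM gave 4, with 0 higher in each. The genes called as deposited were the ubiquitin ligase RNF145 (-0.77) and NPLOC4 (-0.55), a cofactor of the extraction ATPase VCP. RNF145 passed in 10 of 15 alternatives (adjusted p 0.00685 to 0.0898, limma) and NPLOC4 in 8 (0.00679 to 0.0799).

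Of 21 tested targets of SREBPs on the cholesterol side, 8 were called lower and 1 higher, with a median log2 fold change of -0.7 against 0.32 for all tested genes. The gene called higher was FDPS, farnesyl diphosphate synthase, with 0.46 (adjusted p = 0.0371, limma; 0.031 to 0.586 over the alternatives). Under the 3 scalings 8 to 12 were called lower and 0 higher. The squalene epoxidase SQLE stood at -2.01 (adjusted p = 0.0352, limma; 0.00709 to 0.107 over the alternatives) and passed in 7 of 15. INSIG1, also a known SREBP target, was called in the opposite direction to these 8 genes. Of 12 targets on the fatty acid side, 3 were called lower and 1 higher, with a median of -0.44. The lower genes were FASN (-1.97), FADS1 (-1.89) and ACACA (-1.4), which encode fatty acid synthase, a desaturase and acetyl-CoA carboxylase, and each passed in all 15 alternatives. FASN had 64, 59.2 and 25.4 FPKM in NC pigs, where adipocyte markers summed to 200, 301 and 50.1 FPKM. It had 14, 12 and 9.26 FPKM in HFCF pigs, where these markers summed to 102, 74.8 and 99.7 FPKM. The part of adipocytes in these levels was not tested. GPAM, which starts glycerolipid synthesis, was the gene called higher (0.96, adjusted p = 0.0217, limma; 0.0157 to 0.309 over the alternatives), and under the 3 scalings 0 were called higher and 4 to 5 lower.

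Among 14 other tested genes of the LDL receptor family and of sorting receptors, 3 were called lower and 0 higher in limma, with 6 lower and 1 higher at an unadjusted p under 0.05. Among the called genes were the sorting receptor SORT1 (-1.45, adjusted p = 0.0051, limma) and the Wnt co-receptor LRP5 (-1.39, adjusted p = 0.0043, limma), while VLDLR, with -0.72, was not called. The list had a median of -0.31, and under the 3 scalings 3 to 6 were called lower and 0 higher. Of 13 chaperones, adaptors and ligands of VLDLR and LRP1, 2 were called higher and 2 lower, with 2 higher under each of the 3 scalings and 2 to 4 lower. LRPAP1, the chaperone that keeps ligands off new receptors, rose by 1.05 on the log2 scale (adjusted p = 0.00742, limma). APOE, a ligand of both receptors and a macrophage product, rose from 12.4, 16.8 and 13.7 FPKM to 1830, 882 and 635 FPKM (log2 fold change 6.14, adjusted p = 0.00035, limma).

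Beside STARD4, 16 sterol transfer and storage genes were tested, of which 5 were called higher and 1 lower, with a median of 0.38 close to the 0.32 of all genes. The largest rises were those of SOAT1 (2.5), which esterifies cholesterol, OSBPL8 (1.81) and the lysosomal carrier NPC2 (1.47), and each passed in all 15 alternatives. OSBPL5, at -1.32, was the only one called lower in the fit as planned, and the list had 4 higher and 2 lower calls with median-ratio scaling, 3 and 2 with quantile normalization, and 4 and 2 with rescaling to TPM. Of 8 genes of the LXR oxysterol receptors and their targets, 3 were called higher and 0 lower in limma, with 4 higher and 0 lower at an unadjusted p under 0.05. The called genes were APOE, ABCA1 (3.82) and ABCG1 (2.34, which passed in 14 of 15 alternatives), the latter pair being cholesterol exporters, while SREBF1, itself a known LXR target, was called lower. MYLIP, the LXR target that leads VLDLR to degradation, was singled out after its values had been seen. Its log2 fold change was 0.14, and it was not called (adjusted p = 0.567, limma; 0.191 to 0.958 over the alternatives).

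**Figure D4:**
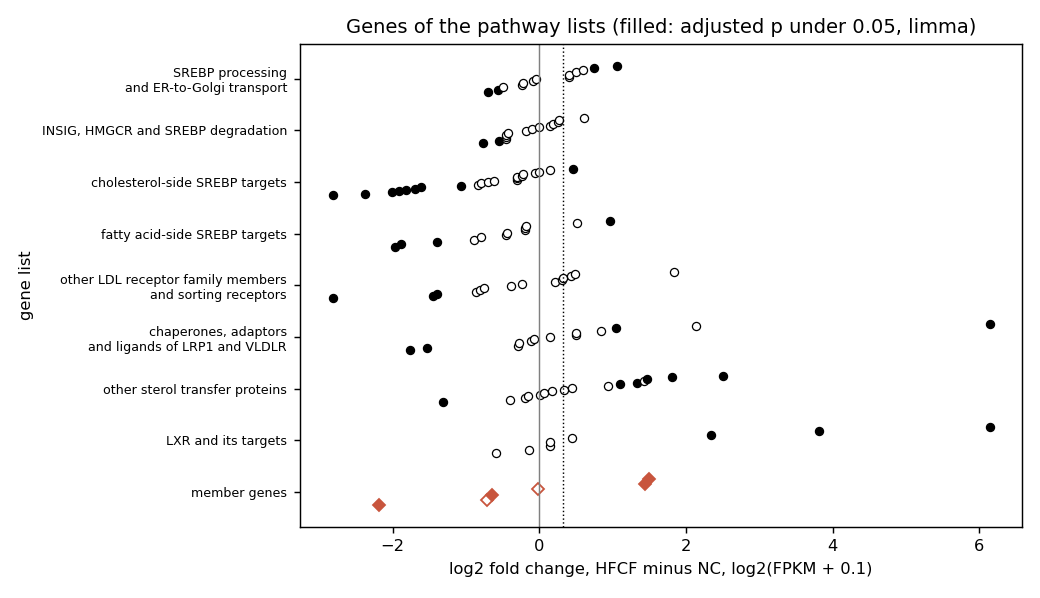
Log2 fold change, HFCF minus NC, of each tested gene in 8 pathway lists (circles) and of the 6 tested members (diamonds), with filled symbols for an adjusted p under 0.05 in limma and a dotted line at the median of all tested genes, 0.32. Called cholesterol-side targets lie mostly to the left, 8 of 9 below 0, and SREBF2 at -2.18 lies with them while INSIG1 and INSIG2 lie to the right.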

How the data were processed

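Total RNA of abdominal aorta from 3 NC and 3 HFCF pigs was sequenced as paired-end reads. The authors trimmed reads (cutadapt 1.9 in the submitters' notes), aligned them to the pig genome with HISAT2, ran StringTie and deposited FPKM values per gene, 1 column per pig. An FPKM value is relative to the whole library, so a rise of abundant genes lowers the values of others, and read counts were not used. The genome build of the methods is older than that of the gene tables at hand, so no coordinates or sequences are given. A value of 0.0001 was read as 0. Values were analysed as log2(FPKM + 0.1) for genes with a mean of at least 0.1 FPKM with limma 3.58.1 in R 4.3.3 (diet as the only factor, eBayes with trend, Benjamini-Hochberg over all 15384 genes). A ratio between 2 genes was tested by an exact permutation over pigs. Whether the pigs differ in litter or batch is not given in the sources used here.

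Members and lists were chosen with earlier results of these data known. Of 168 list and marker genes 160 had a row, 4 of them matched by Ensembl ID. All members were named, with up to 3 called genes of each list by size of change and the 2 nearest profiles of each member. Genes named outside this rule were FDPS, GPAM, LRPAP1, OSBPL5, MBTPS1 and MYLIP, and some cell type markers. Some list genes that this rule takes are counted but not reported by name here. Fibroblast markers were called in 1 of 7 cases and skeletal muscle markers in 0 of 3 in limma (1 at an unadjusted p under 0.05). Alternatives were pseudocounts of 1 and 0.01, no filter, a mean of at least 1 FPKM, rescaling to TPM, quantile normalization, median-ratio scaling, no variance trend, a replicate block, the thresholds of the study and each pig left out. The fit was tested on simulated data, and no outcome of that test is given or relied on here.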

Additional observations from a re-analysis of the deposited data

How the results depend on the processing

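Over 15 alternatives in limma SREBF2 kept its call in 15, INSIG2 in 14, INSIG1 in 9 and SREBF1 in 8, and none of these 4 genes changed its direction. The count of members called, 4 as planned, was 2 with quantile normalization and 2 to 3 with each pig left out. Members called higher, 2 as planned, numbered 1 with median-ratio scaling, 1 with rescaling to TPM and 1 to 2 with each pig left out. With quantile normalization 0 were called higher in limma, and 2 were higher at an unadjusted p under 0.05 there. Members called lower, 2 as planned, numbered 3 with median-ratio scaling, where VLDLR was added, 1 without a variance trend, 1 with the replicate block, 1 by the thresholds of the study and 1 to 2 with each pig left out. Over all tested genes, 3505 of 15384 were called higher and 948 lower as planned. Median-ratio scaling gave 2035 and 1982 of 15360, quantile normalization 1748 and 1782, and rescaling to TPM 2146 and 1539 of 17531. The fit without a variance trend gave 3355 and 776, and the replicate block 2232 and 540. With each pig left out, 1979 to 2815 were called higher and 442 to 786 lower. The difference in the INSIG1 to INSIG2 log2 ratio, 0.06, ran from -0.48 without the third NC pig to 0.36 without the first NC pig. That difference was -0.39 without the first HFCF pig. The cause of these changes was not tested. The sample titles link pigs of the same number by that number only. Their deviations from the group means correlated at 0.021, -0.079 and -0.072, and those of pigs of different numbers at up to 0.127. With 3 pigs in each group these correlations cannot show whether pigs were paired. Over all genes the replicate block gave 2772 calls in place of 4453. The planned ratio of VLDLR to LRP1 was not run. FPKM without read counts gives no counting error for low genes such as STARD4.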

Other observations

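The first HFCF pig was looked at after its values had been seen, and the counts are given without a test. It had the highest level of the 3 HFCF pigs in 42.5% of all tested genes, in 10 of 12 fatty acid-side targets of SREBPs, in 9 of 21 cholesterol-side targets and in 2 of the 6 tested members, INSIG1 and SREBF2. Its SQLE level of 4.56 FPKM was the highest of the HFCF group, while its VLDLR level of 16.9 FPKM was the lowest. The same pig had the highest sums of macrophage markers (1800 FPKM) and T cell markers (12.3 FPKM).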
